A study of Mus musculus with 5 samples.

Results

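The T cell receptor complex and its proximal kinases were followed through 9 genes chosen by name from the 27998 genes of the count matrices. They were the signalling chains Cd3d, Cd3e, Cd3g and Cd247, the kinases Lck, Fyn and Zap70, and the adaptors Lat and Lcp2. All 9 had a row in each of the 5 matrices and in the authors' table of mean expression, which held 10721 genes. The study sorted γδ T cells of mice by the Vγ4 or the Vγ6 chain of their receptor and sequenced the 3′ ends of their transcripts in droplets, counting unique molecular identifiers (UMIs). There was 1 library per group: skin Vγ4 and skin Vγ6 from the ear, thymus Vγ6, Vγ6 of peripheral lymph node (pLN), and a pool of Vγ6 cells. The first 4 groups came from C57BL/6 mice aged 8 weeks. The pool mixed pLN cells of TcrdCreER mice, thymus cells of ACT-FLPe mice and ear skin cells of TcrdH2BeGFP mice aged 8 to 10 weeks, and no label ties a pooled cell to its tissue or strain.

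Collagenase digestion of the ear skin took 75 minutes at 37 °C. In the thymus, cells bearing CD4 or CD8β were removed by antibodies plus complement, also at 37 °C, over 30 minutes, whereas lymph node cells were only filtered, so tissue and preparation cannot be told apart. The number of mice behind each library was not given in the sources used here. The kept cells of a library numbered 687 to 2517 and held 793463 UMIs in skin Vγ6, the fewest, to 6607432 in thymus Vγ6, the most. Median UMIs per cell were between 1059 in skin Vγ6 and 2156 in thymus. Pairs of libraries shared 0 to 9 cell barcodes.

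The sorted cells were checked against 11 markers of IL-17-producing γδ T cells, which were all detected in every library. Their summed level was 5068 CPM (a gene's UMIs per 1000000 UMIs of its library) in skin Vγ4, 3517 in skin Vγ6, 554 in thymus, 1724 in pLN and 2349 in the pool. Markers of αβ T cells or thymocytes went the other way, at 159 CPM in thymus with all 7 detected. They were at 8.28 CPM in the skin Vγ4 library, 17.6 in the skin Vγ6 library, 15.7 in pLN and 33.4 in the pool, with Rag1 and Rag2 at 0 in these 4 libraries.

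The antigen-binding chains of a T cell receptor have almost no cytoplasmic tail, and the CD3 chains and the zeta chain encoded by Cd247 carry the tyrosine motifs that pass the signal on. Lck and Fyn, kinases of the Src family, phosphorylate these motifs, and Zap70 docks there. Zap70 then phosphorylates Lat and SLP-76, the protein encoded by Lcp2, and these adaptors gather the enzymes that raise calcium and switch on Ras. IL-17-producing γδ T cells are programmed in the thymus and then live for long periods in skin and other barrier tissues.

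Lck and Lcp2 had the widest spread of level of the 9 genes, and the 3 CD3 genes were lower in both skin libraries than in thymus, pLN and the pool, so the start-site windows of these genes are shown. The windows run from 250 bases before to 50 bases after each gene start in RefSeq's annotation of GRCm38.p6, and all 9 genes had one, 12 windows in all because Lck and Zap70 have several starts. Capitals mark 3 short motifs read on both strands: AGGAAG or CTTCCT of ETS factors, TGTGGT or ACCACA of RUNX factors, and CACCTG or CAGGTG, an E-box of E proteins. No marked motif overlapped another. The upstream Lck window lies on the minus strand at chr4:129573592-129573891, the downstream one on the minus strand at chr4:129558323-129558622. The Cd3g window is on the minus strand at chr9:44980382-44980681, Cd3d on the plus strand at chr9:44981536-44981835, Cd3e on the minus strand at chr9:45009562-45009861 and Lcp2 on the plus strand at chr11:34046678-34046977.
Lck, upstream start: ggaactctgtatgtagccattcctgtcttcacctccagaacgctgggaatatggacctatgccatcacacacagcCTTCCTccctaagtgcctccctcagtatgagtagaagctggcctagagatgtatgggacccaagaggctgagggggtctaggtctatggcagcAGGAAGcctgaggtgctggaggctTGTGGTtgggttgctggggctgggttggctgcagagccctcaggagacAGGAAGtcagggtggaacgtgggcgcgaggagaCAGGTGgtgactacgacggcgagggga
Lck, downstream start: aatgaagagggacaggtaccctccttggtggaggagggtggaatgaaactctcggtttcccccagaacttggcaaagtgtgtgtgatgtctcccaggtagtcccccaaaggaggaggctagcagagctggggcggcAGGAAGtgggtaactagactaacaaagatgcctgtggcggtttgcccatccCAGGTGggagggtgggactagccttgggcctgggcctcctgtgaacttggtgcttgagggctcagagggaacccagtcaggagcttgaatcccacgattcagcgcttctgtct
Cd3g: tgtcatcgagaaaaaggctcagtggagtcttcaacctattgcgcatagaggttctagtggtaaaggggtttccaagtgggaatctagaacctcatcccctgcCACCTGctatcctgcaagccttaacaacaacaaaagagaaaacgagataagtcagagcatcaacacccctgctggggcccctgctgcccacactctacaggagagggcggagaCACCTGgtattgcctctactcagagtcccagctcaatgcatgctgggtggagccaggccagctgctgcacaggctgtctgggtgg
Cd3d: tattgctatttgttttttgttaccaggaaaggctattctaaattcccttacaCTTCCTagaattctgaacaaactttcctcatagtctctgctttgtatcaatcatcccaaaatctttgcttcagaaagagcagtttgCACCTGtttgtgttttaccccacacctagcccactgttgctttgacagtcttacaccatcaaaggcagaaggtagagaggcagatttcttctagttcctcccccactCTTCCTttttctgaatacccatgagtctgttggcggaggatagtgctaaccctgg
Cd3e: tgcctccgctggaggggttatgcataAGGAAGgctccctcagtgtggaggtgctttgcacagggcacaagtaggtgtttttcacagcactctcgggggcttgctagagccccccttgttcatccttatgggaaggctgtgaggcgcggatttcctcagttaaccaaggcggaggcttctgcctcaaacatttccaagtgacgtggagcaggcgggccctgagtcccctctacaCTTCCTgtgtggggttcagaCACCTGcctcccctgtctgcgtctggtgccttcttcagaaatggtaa
Lcp2: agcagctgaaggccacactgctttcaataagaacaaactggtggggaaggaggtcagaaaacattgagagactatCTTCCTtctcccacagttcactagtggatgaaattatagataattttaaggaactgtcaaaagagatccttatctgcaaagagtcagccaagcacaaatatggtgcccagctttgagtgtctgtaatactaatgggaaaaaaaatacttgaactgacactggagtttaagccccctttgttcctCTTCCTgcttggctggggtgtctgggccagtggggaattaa

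The upstream Lck window held 3 ETS motifs, 1 RUNX motif and 1 E-box, and the downstream window 1 ETS motif and 1 E-box. Cd3d and Cd3e had 2 ETS motifs and 1 E-box each, Cd3g had 2 E-boxes and none of the others, and Lcp2 had 2 ETS motifs alone. Such matches are common: of 32851 windows of this length, 35.4% held the ETS letters, 20.2% the E-box letters and 16.8% the RUNX letters. Counts of 3′ ends do not show which of the Lck starts was used. In the GENCODE annotation of GRCm38, Cd3g (chromosome 9, 44969572 to 44980431) and Cd3d (44981786 to 44987339) are transcribed away from each other from starts 1355 bases apart, and Cd3e (44998740 to 45009627) ends 11401 bases from the end of Cd3d. Lck spans 129548344 to 129573641 on chromosome 4, Lcp2 34046920 to 34092295 on chromosome 11, Fyn 39368855 to 39565381 on chromosome 10 and Lat 126363824 to 126369570 on chromosome 7. Cd247 (165788681 to 165877277) and Zap70 (36761798 to 36782818) are both on chromosome 1.

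Of the chains of the receptor complex, Cd3d, Cd3e and Cd3g were lower in both skin libraries than in thymus and pLN. Cd3g, the CD3 gamma chain, was at 751 CPM in skin Vγ4, 1090 in skin Vγ6, 1784 in thymus, 2216 in pLN and 2416 in the pool. Cd3e, the epsilon chain needed for assembly of the whole complex, was at 337, 485, 1006, 923 and 1154 CPM in the same order, and Cd3d, the delta chain, at 426, 451, 1098, 863 and 987 CPM. For all 3 genes both skin libraries lay below the other 3, with no overlap of the 95% counting intervals (exact Poisson). Within skin, Cd3d did not differ beyond its interval (398 to 456 in Vγ4, 406 to 500 in Vγ6).

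Cd247, the zeta chain, did not follow this split. It was at 223 CPM in skin Vγ4, 266 in skin Vγ6, 228 in thymus, 354 in pLN and 397 in the pool, and the intervals of both skin libraries and thymus overlapped. Summed over the 4 chain genes, the level was 1737 CPM in skin Vγ4, 2292 in skin Vγ6, 4116 in thymus, 4356 in pLN and 4954 in the pool. All of these intervals cover counting error only, and without replicate libraries no difference could be weighed against variation among mice.

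Lck, the Src-family kinase that starts signalling in conventional T cells, was high in 1 of the single-tissue libraries. It was at 18.1 CPM in skin Vγ4 (35 UMIs), 13.9 in skin Vγ6 (11 UMIs), 345 in thymus (2280 UMIs), 19.7 in pLN (83 UMIs) and 136 in the pool (402 UMIs). Thymus stood clear of every other library and the pool lay between. The skin Vγ4, skin Vγ6 and pLN intervals overlapped (12.6 to 25.2, 6.92 to 24.8 and 15.7 to 24.4 CPM). Lck made up 6.37% of all UMIs of the 9 genes in thymus, but 0.685% in skin Vγ4, 0.409% in skin Vγ6 and 0.371% in pLN.

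Fyn, the related kinase often able to stand in for Lck, had a narrower range. It was at 64.1 CPM in skin Vγ4, 55.5 in skin Vγ6, 86.9 in thymus, 49.9 in pLN and 76.0 in the pool, and each library's interval overlapped that of its neighbour when ranked by level, while those of thymus (79.9 to 94.3) and pLN (43.4 to 57.1) did not overlap. Zap70, the kinase that docks on the phosphorylated chains, was at 202 CPM in skin Vγ4, 217 in skin Vγ6, 126 in thymus, 127 in pLN and 244 in the pool. Both skin libraries were above thymus and pLN, which did not differ (118 to 135 and 117 to 138 CPM).

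The adaptors split in opposite directions. Lcp2 was at 182 CPM in skin Vγ4, 268 in skin Vγ6, 44.0 in thymus, 66.5 in pLN and 158 in the pool, so that skin was the high tissue for this gene. Lat, the membrane adaptor, was at 441 CPM in skin Vγ4, 543 in skin Vγ6, 698 in thymus, 688 in pLN and 900 in the pool, with thymus and pLN overlapping. Lcp2 took 6.89% of the UMIs of the 9 genes in skin Vγ4 and 7.92% in the skin Vγ6 library, but 0.813% in thymus and 1.25% in pLN.

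**Figure D1:**
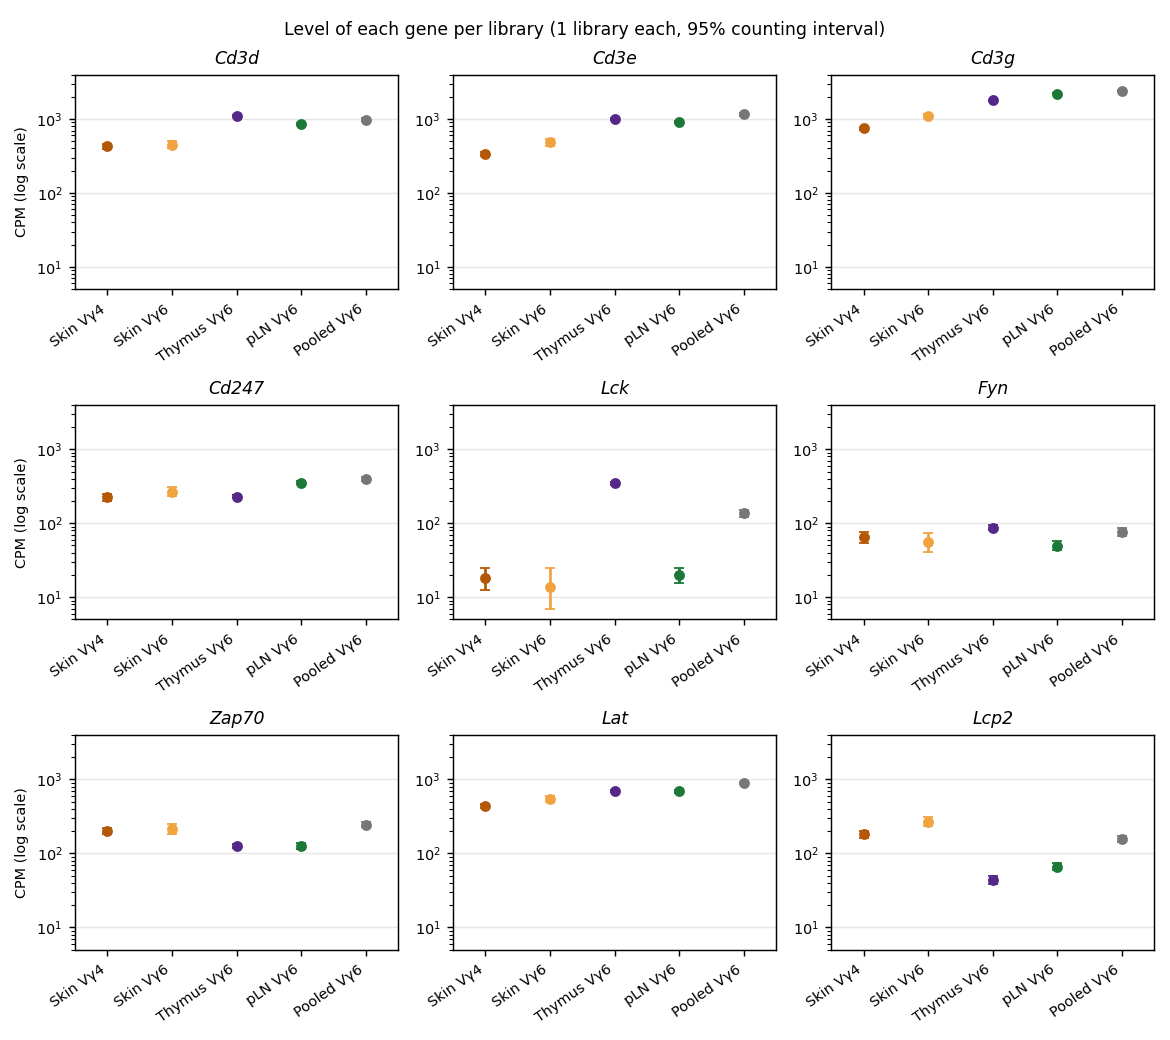
Level of each of the 9 genes in CPM (log axis) in the 5 libraries, 1 point per library with its exact Poisson 95% interval. Lck stands at 345 CPM in thymus and below 20 CPM in both skin libraries and pLN, while Lcp2 is highest in skin.

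Shares of cells with at least 1 UMI were compared after each cell was thinned to 800 UMIs, because depth differed. Thinning left out 39 skin Vγ4, 125 skin Vγ6, 10 thymus, 0 pLN and 323 pooled cells with fewer UMIs. Cd3g was then seen in 41.4% of skin Vγ4, 55.5% of skin Vγ6, 74.2% of thymus, 87.0% of pLN and 78.8% of pooled cells, against 64.8%, 64.0%, 95.2%, 98.8% and 86.1% before thinning. Lck was seen in 0.966% of skin Vγ4, 0.712% of skin Vγ6, 23.3% of thymus, 1.78% of pLN and 8.14% of pooled cells. Before thinning the Lck shares were 2.12%, 1.31%, 51.3%, 4.66% and 12.9%. Lcp2 was seen in 12.0% of skin Vγ4, 18.5% of skin Vγ6, 3.27% of thymus, 5.76% of pLN and 11.7% of pooled cells after thinning, and in 24.2%, 25.8%, 10.8%, 16.7% and 19.8% before it.

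At that equal depth, at least 1 of the 4 chain genes was seen in 70.7% of skin Vγ4, 83.3% of skin Vγ6, 95.8% of thymus, 96.8% of pLN and 94.3% of pooled cells. Cd3d, Cd3e and Cd3g were all seen in the same cell in 3.25% of skin Vγ4 and 5.16% of skin Vγ6 cells, but in 25.6% of thymus, 29.9% of pLN and 28.7% of pooled cells. A cell without a UMI of a chain gene is not shown to lack the receptor, since detection rose with depth. Sorting for the surface chain does not settle this, because cells led by genes of other cell types were also present.

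UMIs of the 9 genes also appeared in cells led by genes of other cell types. A cluster of 40 pooled cells led by H2-Aa, Cd74 and Wfdc17, among them genes of antigen-presenting cells, had a Cd3g UMI in 47.5% and an Lck UMI in 7.50% of its cells (95% exact Clopper-Pearson interval 1.57 to 20.4%), at a median of 1799.5 UMIs against 1303.5 in the whole pool. It also carried B cell genes. The doublet caller marked none of these cells, and whether these UMIs came from mixed droplets or from free RNA was not tested further. In skin Vγ4, 8 cells led by keratinocyte genes held 3 Cd3g UMIs and no Lck UMI at a median of 6625 UMIs. In pLN, 77 cells (5.28% of the library) led by Ms4a1, Ebf1 and Hba-a2 carried genes of B cells and antigen-presenting cells too. Lck shares at or below that of the H2-Aa cluster, as in whole skin and pLN, were not read as expression of Lck. That limit rests on 40 cells of the pool, which had more Lck than skin or pLN, and none was set from those libraries themselves.

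Comparing skin Vγ6 with pLN Vγ6 asked how the receptor machinery of the same sorted subset differs between a barrier tissue and a lymph node. A gene was called when its CPM ratio was at least 2-fold, the exact conditional binomial 95% interval left out 1, and its level reached 20 CPM in 1 library or more. Of the 8 members above that level, 1 was called higher and 1 lower, against 16% higher and 30.4% lower of all 5770 genes. Lcp2 was 4.04-fold higher (3.36 to 4.84). Cd3g was 2.03-fold lower (1.90 to 2.18), and its neighbours Cd3d at 1.91-fold (1.72 to 2.14) and Cd3e at 1.90-fold lower (1.71 to 2.12) stopped just short of the call. The 3 CD3 genes thus moved by about the same factor, and the size rule fell between them.

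The other members moved less. Cd247 had a ratio of 0.752 (0.648 to 0.869), Lat 0.789 (0.712 to 0.874), Fyn 1.11 (0.784 to 1.54) and Zap70 1.71 (1.43 to 2.03). Lck was under 20 CPM in both libraries and its ratio was 0.703 (0.338 to 1.32), so no difference was detectable at this depth. The median log2 ratio of the 8 members was -0.38 and that of all genes was also -0.38. TMM factors, which scale libraries by their shared genes, moved the median of all genes to -0.08, and 47.1% instead of 34.4% of all calls were then higher. Under them the Cd3g call ended at a log2 ratio of -0.77 and Zap70 was called higher at 1.02. The Cd3g call also ended with median-of-ratios factors (-0.75) and with the stricter cell filter (-0.67), while Cd3d and Cd3e were called lower after thinning (-1.24 and -1.10).

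**Figure D2:**
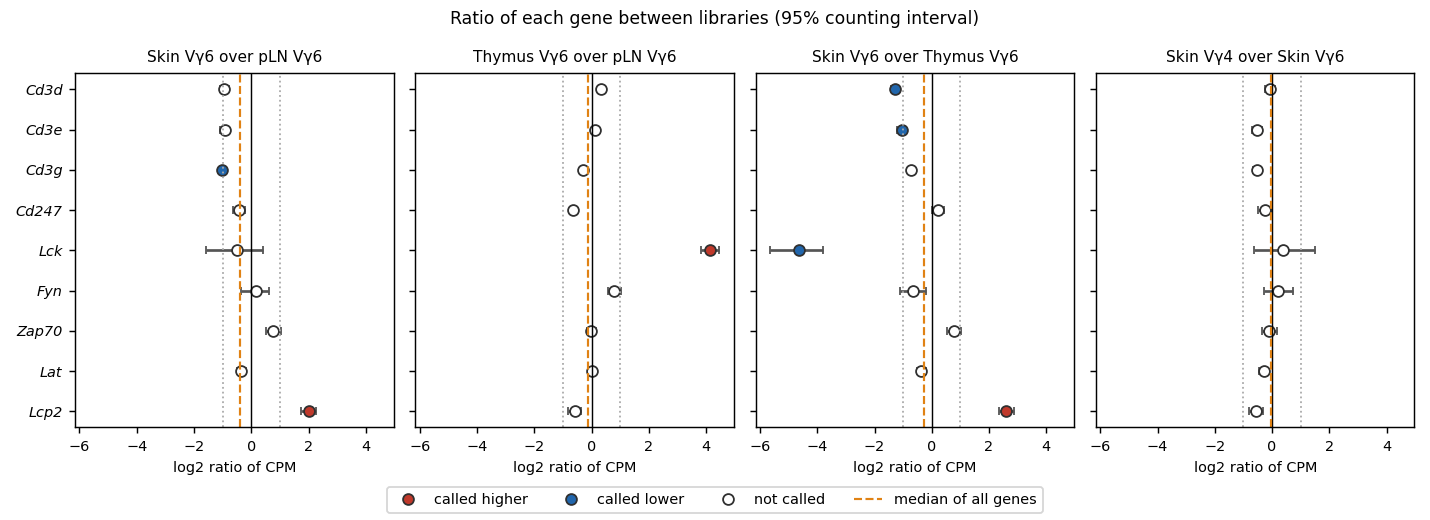
Ratio of each gene between libraries on a log2 axis with the 95% counting interval, 1 panel per comparison; filled points pass the call rule, dotted lines mark 2-fold and the dashed line the median of all genes. Lck lies at 4.06 in thymus over pLN and -4.54 in skin Vγ6 over thymus, Lcp2 at 2.00 and 2.58 in the panels of skin Vγ6 over pLN and over thymus, and no gene passes the rule in skin Vγ4 over skin Vγ6.

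Genes of the wider pathway were called in both directions. Among 68 further pathway genes, 46 reached 20 CPM, and 14 were called higher and 11 lower in skin, beside the 16% higher and 30.4% lower of all genes. Txk, a kinase of the Tec family, was at 311 CPM in skin and 114 in pLN, 2.74-fold higher (2.34 to 3.20). Orai1, the pore of the store-operated calcium channel, was 11.2-fold higher (8.54 to 14.8), at 213 against 19.0 CPM. Blk, a Src-family kinase best known from B cells, went the other way at 122 against 327 CPM, 2.67-fold lower.

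Counted with the members they hold, the lists split as follows, beside the 16% higher and 30.4% lower of all genes. Among adaptors, 4 of 11 were higher and none lower. Grap2, which bridges Lat to the Lcp2 product, was 5.25-fold higher (3.90 to 7.07), so both it and Lcp2 were higher while Lat was not called. Sh2d2a was 3.04-fold and Pag1, which recruits the inhibitory kinase Csk, 2.08-fold higher. Of 13 downstream effectors, 4 were higher and 2 lower, with Malt1, a protease of the NF-κB pathway, 4.46-fold higher and Vav1 3.42-fold and Prkcq 3.58-fold lower. Of 16 brakes of signalling, 4 were higher and 7 lower. Ptpn22, a phosphatase acting on Lck and Zap70, was 3.76-fold higher, while Dgkz, which removes diacylglycerol, was 4.39-fold, Map4k1 3.85-fold and Dok2 3.68-fold lower. Ptprcap, a partner of the phosphatase CD45, was 3.87-fold lower, the 1 call among 4 surface partners. Beside these differences, dendritic or macrophage markers (9 of 12 detected in each library) summed to 886 CPM in skin and 1873 in pLN, and keratinocyte markers (5 and 4 of 8 detected) to 263 and 59.8 CPM, and their part in the result was not tested.

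Fcer1g, an alternative signalling chain, was 5.70-fold higher in skin Vγ6 than in pLN (58 and 54 UMIs). It was concentrated in 17 skin cells led by Xcl1, Nkg7 and Klrd1, where it reached 2106 CPM, against 10.3 and 29.8 CPM in the largest skin Vγ6 clusters. Those 17 cells held 45 of the 58 Fcer1g UMIs of the library, at a median of 792 UMIs per cell, and also carried 4 of the 11 Lck UMIs of the library and the highest Cd3g of any skin cluster, 2854 CPM (2183 to 3667).

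Comparing thymus Vγ6 with pLN Vγ6 set the organ in which the subset arises against the periphery. Lck was the 1 member of 9 called higher, and none was called lower, against 11.8% higher and 11.3% lower of 5703 genes. It was 17.5-fold higher (14.1 to 22.1). Fyn had a ratio of 1.74 (1.48 to 2.05), Cd3d 1.27 (1.22 to 1.32), Cd3e 1.09 (1.05 to 1.13), Cd3g 0.805 (0.783 to 0.827), Cd247 0.645 (0.600 to 0.693) and Lcp2 0.662 (0.560 to 0.783). Lat at 1.01 (0.968 to 1.06) and Zap70 at 0.993 (0.890 to 1.11) did not differ beyond counting error. The members' median log2 ratio was 0.02 and that of all genes -0.13, or 0.00 with TMM factors.

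Of 52 further pathway genes, 20 were called higher and 3 lower in thymus, beside the 11.8% higher and 11.3% lower of all genes, and the other 29 were not called. Cd28, the costimulatory receptor, was at 234 against 2.14 CPM, a ratio of 109 (57.5 to 240). Adaptors were 6 higher and 1 lower of 14, among them Trat1 at 23.9-fold (9.14 to 88.8), Sh2d1a, the SAP adaptor that couples SLAM receptors to Fyn, at 19.9-fold (14.5 to 28.0), Themis, an adaptor of thymocyte selection, at 19.1-fold (9.12 to 48.1) and Fyb at 6.78-fold. Of 9 surface partners, 6 were higher, including Cd8b1 at 18.1-fold and Cd6 at 5.58-fold. Orai1 was 7.62-fold higher (6.06 to 9.69), at 145 against 19.0 CPM. Blk was 3.14-fold lower (104 against 327 CPM), so that Lck and Blk were at opposite ends between these libraries. Among brakes, Cblb was 6.18-fold, Ptpn22 5.00-fold and Dgka 3.52-fold higher and Ptpn7 2.58-fold lower. Beside these differences and that of Lck, αβ T cell or thymocyte markers summed to 159 CPM in thymus (7 of 7 detected) and 15.7 CPM in pLN (5 of 7, Rag1 and Rag2 at 0), and markers of IL-17-producing γδ T cells to 554 and 1724 CPM. Cd8a and Cd8b1 belong to both the surface partners and the thymocyte markers. The part of both marker lists in the result was not tested.

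Against thymus, skin Vγ6 cells had less Cd3d and Cd3e, almost no Lck and more Lcp2. Of 9 members, 1 was called higher and 3 lower, with backgrounds of 13.7% higher and 24.5% lower among 5656 genes. Lck was 24.9-fold lower (13.9 to 49.9), Cd3d 2.43-fold lower (2.19 to 2.71) and Cd3e 2.07-fold lower (a ratio of 0.482, 0.434 to 0.535), while Lcp2 was 6.10-fold higher (5.08 to 7.30). Cd3g had a ratio of 0.611 (0.570 to 0.655), Lat 0.778 (0.704 to 0.859), Fyn 0.638 (0.459 to 0.868), Cd247 1.17 (1.01 to 1.35) and Zap70 1.72 (1.45 to 2.03). The Cd3e call ended with TMM factors (-0.92), with median-of-ratios factors (-0.81) and with the stricter cell filter (-0.82). Zap70 was called higher with median-of-ratios factors (1.01), which moved the median of all genes from -0.27 to -0.01, and 51.2% instead of 35.8% of all calls were then higher. The members' median log2 ratio was -0.64. Beside these differences, αβ T cell or thymocyte markers summed to 17.6 CPM in skin Vγ6 (3 of 7 detected) and 159 CPM in thymus (7 of 7). Markers of IL-17-producing γδ T cells summed to 3517 and 554 CPM. The part of both marker lists in the result was not tested.

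Of 52 further pathway genes, 7 were higher and 21 lower in skin Vγ6, beside the 13.7% higher and 24.5% lower of all genes. Sh2d1a and Themis had no UMI in skin and were at least 50.0-fold and 8.41-fold lower against a floor of 3 counts per library. Fyb was 10.6-fold and Prkcq, a kinase that links the receptor to NF-κB, 8.31-fold lower. Cd28 was at 2 UMIs in skin, a ratio of 0.0108 (0.0013 to 0.0390). Of 15 brakes, 2 were higher and 7 lower. Sla2 was 6.48-fold, Dgka 5.57-fold and Dgkz 5.01-fold lower, while Sla, an adaptor that dampens Zap70 signalling, was 3.91-fold higher. Of 13 downstream effectors, 3 were higher, among them Malt1 at 5.83-fold, and 2 lower.

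Between skin Vγ4 and skin Vγ6 cells, which share tissue and preparation, 0 of 8 members were called in either direction, against 4.26% higher and 3.18% lower of 4973 genes. With 1 library a group no p-value was computed. The intervals of 5 of these 8 ratios left out 1, all below it: Lcp2 at 0.678 (0.571 to 0.808), Cd3g at 0.688 (0.632 to 0.750), Cd3e at 0.695 (0.612 to 0.790), Lat at 0.812 (0.723 to 0.914) and Cd247 at 0.838 (0.709 to 0.993). Cd3d at 0.945 (0.833 to 1.07), Zap70 at 0.931 (0.776 to 1.12) and Fyn at 1.16 (0.814 to 1.67) did not. The members' median log2 ratio was -0.28 and that of all genes -0.05, or 0.05 with TMM factors, under which 67.5% rather than 57.3% of all calls were higher. Lck, below 20 CPM in both, had a ratio of 1.31 (0.648 to 2.85). Keratinocyte markers stood beside this comparison at 1164 CPM in skin Vγ4 (Krt1 at 0) and 263 CPM in skin Vγ6 (Krt5, Krt1 and Krt15 at 0), and their part in it was not tested.

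Of 41 further pathway genes, 4 were higher and 2 lower in skin Vγ4, beside the 4.26% higher and 3.18% lower of all genes. Fyb, an adaptor linking the receptor to integrins, was 5.45-fold higher (3.37 to 9.35), Lyn, another Src-family kinase, 2.46-fold (1.21 to 5.67), Dgkz 2.35-fold (1.04 to 6.20) and Sla2 2.28-fold (1.33 to 4.17). Fcer1g was 20.2-fold lower (7 against 58 UMIs, most of those in skin Vγ6 falling in the 17 cells above) and Malt1 2.44-fold lower. The family partner of Zap70, Syk, was at or below 1.01 CPM in every library.

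**Figure D3:**
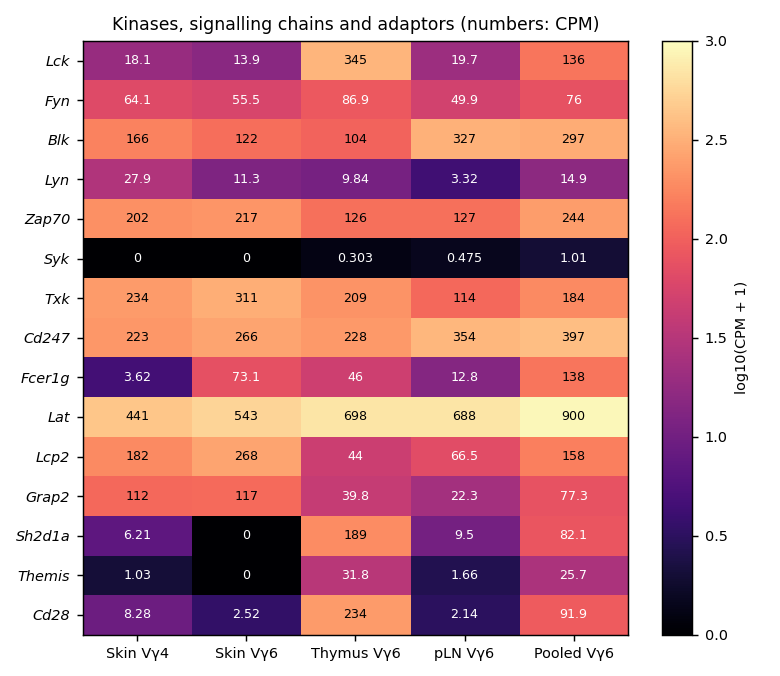
Level in CPM (numbers; colour gives log10 of CPM plus 1) of kinases, signalling chains, adaptors and Cd28 in the 5 libraries. Lck, Sh2d1a, Themis and Cd28 are high in thymus and lower in the pool, Blk is highest in pLN at 327 CPM, and Lcp2 is highest in skin.

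Within the thymus library, Lck was lowest in the cells led by genes of the IL-17 programme. Cells were clustered in each library alone, with all 77 pathway genes left out of the clustering. In the 651 thymus cells led by Il22, Serpinb1a and Cd163l1, Lck was at 97.5 CPM (81.8 to 115) with a UMI in 18.7% of cells. In the other 5 thymus clusters it was between 354 CPM in dividing cells and 468 CPM in 106 cells led by Ly6d and Dntt. Blk showed the reverse order, at 320 CPM (291 to 351) in the IL-17-type cluster and between 12.7 and 57.4 CPM in the other 5. That cluster held 65.5% of the Blk UMIs of the library and 6.01% of its Lck UMIs. Lck in skin Vγ6, at 13.9 CPM, was below this cluster too, but by less than below the 345 CPM of whole thymus.

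The CD3 gamma chain was also uneven. Cd3g was at 2950 CPM in the IL-17-type thymus cluster and between 1134 and 1785 CPM in the other 5, and Lat at 1041 CPM against 409 to 700.5 CPM. Cd3d differed less, at 1149 CPM against 761 to 1193 CPM. With the IL-17-type cluster alone standing for thymus, Lck over pLN was 4.94-fold rather than 17.5-fold higher, Cd3g over pLN turned to a ratio of 1.33, and skin Vγ6 over thymus was called lower for Cd3g at a ratio of 0.370. The cluster led by Dntt, the gene of a recombination enzyme of thymocytes, held 9.69% of the Lck UMIs of the thymus library. The largest cluster, 1235 cells led by Cpa3, Ccr9 and Gsn, held 52.5% of them.

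In pLN and skin Vγ4, the highest Lck level was in a small cluster, which held most of the Lck UMIs in skin Vγ4 but not in pLN. In pLN, 16 cells led by Crem, Gzma and Sox4 had Lck at 263 CPM (136 to 459; 12 of the library's 83 UMIs), against 11.4 CPM in the largest cluster of 922 cells. In skin Vγ4, 39 cells led by Gzma, Plac8 and Gimap6 had Lck at 255 CPM (155 to 393; 20 of 35 UMIs), against 11.5 and 5.45 CPM in the clusters of 407 and 672 cells. Gzma, Sox4 and Cd24a were among the leading genes of both clusters. The skin cluster shared Cpa3, Ccr9, Plac8 and Sox4 with the leading genes of the largest thymus cluster, and whether its cells came from the labelled tissue was not tested.

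**Figure D4:**
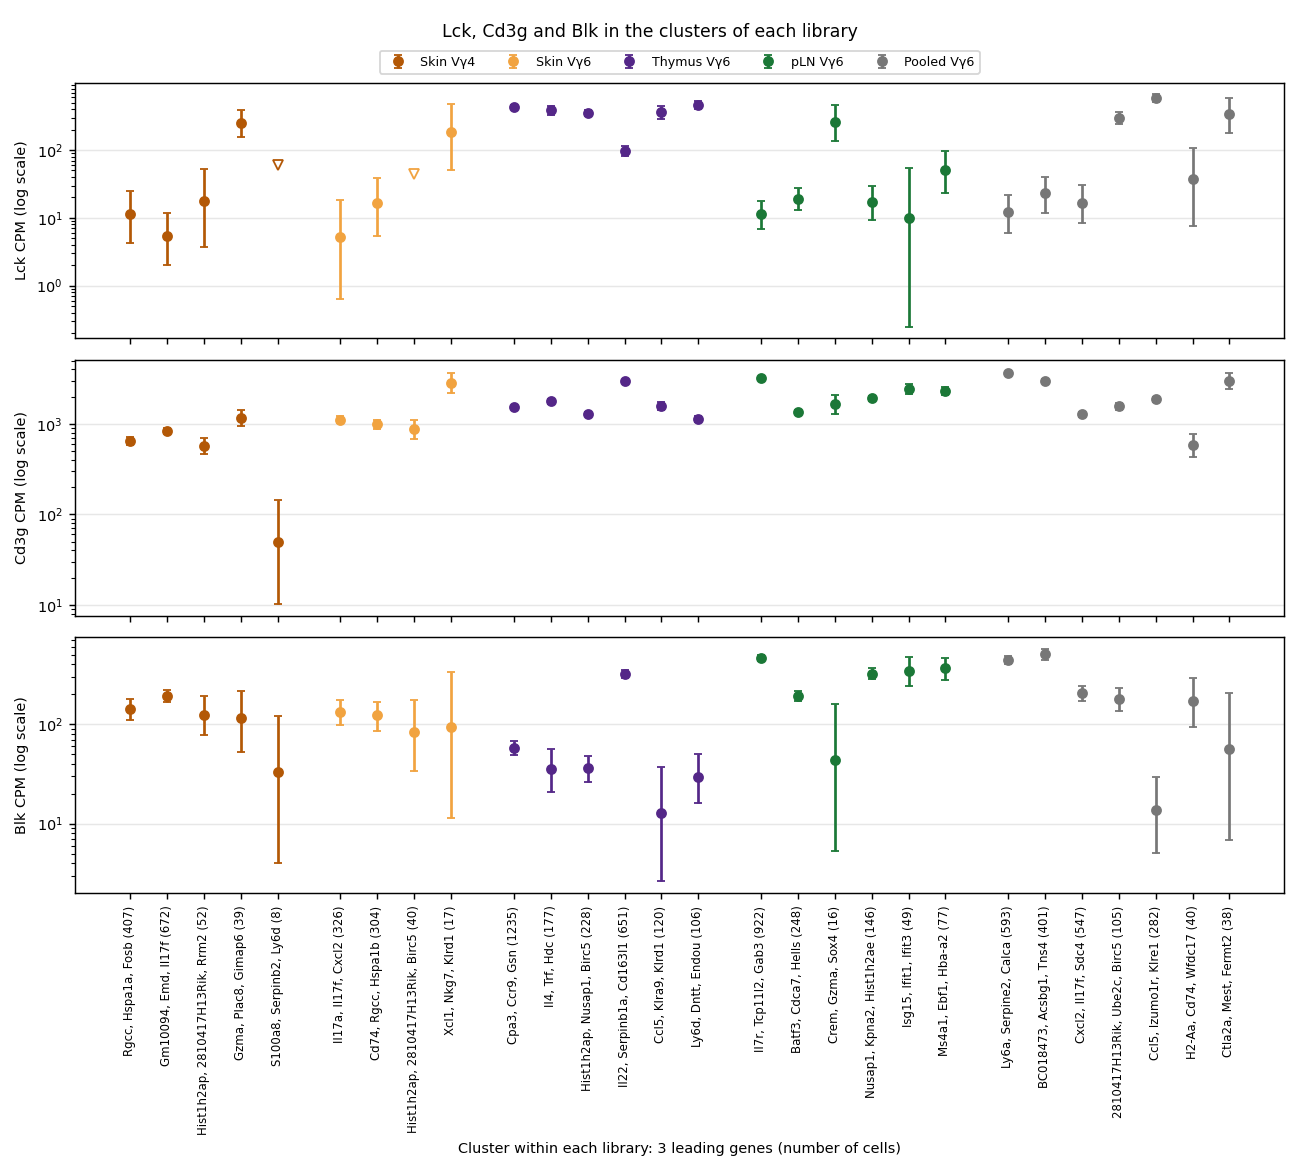
Lck, Cd3g and Blk in CPM (log axes) in every cluster of the 5 libraries, with 95% Poisson intervals; clusters are labelled by their leading genes and number of cells, and open triangles mark the upper limit where no UMI was seen. The thymus cluster led by Il22 has the lowest Lck of its library (97.5 CPM) and the highest Blk (320 CPM).

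In the pool, Lck was likewise concentrated in a minority of cells. It was at 12.1, 23.2 and 16.8 CPM in the clusters of 593, 401 and 547 cells that held most of the pool. It reached 585 CPM (516 to 662) in 282 cells led by Ccl5, Izumo1r and Klre1, where 59.6% of cells had a UMI, and at 296 CPM in 105 dividing cells. Those 282 cells held 63.9% of the Lck UMIs and 0.683% of the Blk UMIs of the pool, and their Cd28 level was 408 CPM. Their Lck share lay above that of the H2-Aa cluster, while the shares of 1.85% to 2.74% in the 3 large clusters lay below it.

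A split by Cd163l1, a scavenger receptor gene typical of Vγ6 cells, gave the same order at equal depth. In thymus it is no separate check, since Cd163l1 was also a leading gene of the IL-17-type cluster. Lck was seen in 15.4% of thymus cells with a Cd163l1 UMI (12.3 to 19.0%) and in 25.2% of those without (23.3 to 27.1%). In the pool it was seen in 1.78% of cells with a Cd163l1 UMI (1.04 to 2.83%) and in 16.5% of those without (13.9 to 19.4%). These intervals did not overlap, but cells of 1 library are no replicates and the split is a description.

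Pooled cells were also assigned to the Vγ6 library whose profile fitted them best, with the pathway genes left out of the profiles. Of the single-tissue Vγ6 cells, 98.4% to 99.7% fitted their own library, and a fit is not a tissue label. These cells had made the profiles themselves, so this share does not measure how well pooled cells were assigned. The 665 skin-fitting, 747 thymus-fitting and 594 pLN-fitting pooled cells had Lck at 27.9, 285 and 30.8 CPM. Lck was thus 9.24-fold higher (6.32 to 14.0) in thymus-fitting than in pLN-fitting cells, a smaller factor than the 17.5-fold between the libraries. Cd3d was at 510 CPM in skin-fitting, 1204 in thymus-fitting and 1102 in pLN-fitting cells, 2.16-fold lower in skin-fitting than in pLN-fitting cells. Cd3e and Cd3g were 1.85-fold and 1.67-fold lower there.

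Lcp2 was at 245, 139 and 111 CPM in these pooled cells, 2.21-fold higher (1.74 to 2.84) in skin-fitting than in pLN-fitting cells, against 4.04-fold between the libraries. Its ratio of skin-fitting over thymus-fitting cells was 1.76 (1.43 to 2.18), against 6.10 between the libraries. In thymus-fitting over pLN-fitting cells it was 1.25 (0.978 to 1.62), on the other side of 1 from the 0.662 of the libraries. Zap70 was at 257, 244 and 232 CPM, and its skin over pLN ratio of 1.11 (0.913 to 1.35) did not repeat the 1.71 of the separate libraries. The pooled cells share 1 library, and their strains differ with their tissues.

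The authors' deposited table averages each gene over 8 Vγ6 cell clusters in units that sum to 10000 per cluster. In these finer cell groups, Lck was again highest in thymus clusters and Lcp2 in Skin, and Cd3d, Cd3e and Cd3g were lowest in Skin. Other parts of the order differed from the libraries. Lat was at 5.51 in Skin, above 3.75 in Thy_3 and 4.32 in Thy_4, and Cd3d was highest in pLN_1 at 12.4. The table is no independent repeat because the Vγ6 cells are of the same series. Lck was at 0.0527 in the Skin cluster, at 4.49, 0.709, 4.01, 4.18 and 4.95 in Thy_1 to Thy_5, and at 0.162 and 0.235 in pLN_1 and pLN_2. Thy_2 was the low one of the thymus clusters, and it was also the thymus cluster with the highest Blk in the authors' deposited table, 3.37 against 0.0943 to 0.411 in the other 4. Lcp2 was at 2.87 in Skin and between 0.276 and 0.846 in the other 7 clusters. Cd3g was lowest in Skin at 10.8 and highest in pLN_1 at 33.2, followed by Thy_2 at 30.9. Cd3d and Cd3e were lowest in Skin too, at 4.67 and 4.78, while Cd247 and Fyn were lowest in Thy_5 at 1.56 and 0.252.

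The authors' deposited marker table gave the share of cells with the transcript. Lck was listed in 0.6% of Skin cluster cells, in 57.9% of Thy_1 cells and in 2.6% and 7.6% of pLN_1 and pLN_2 cells. In Thy_2 it was listed in 13.6% of cells, against 54.2% to 75% in Thy_3, Thy_4 and Thy_5. The authors' deposited table listed Lcp2 in 27.8% of Skin cells, against 9.6% of Thy_1 and 9% of Thy_2 cells. Their p-values were over cells and are not used here.

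**Figure D5:**
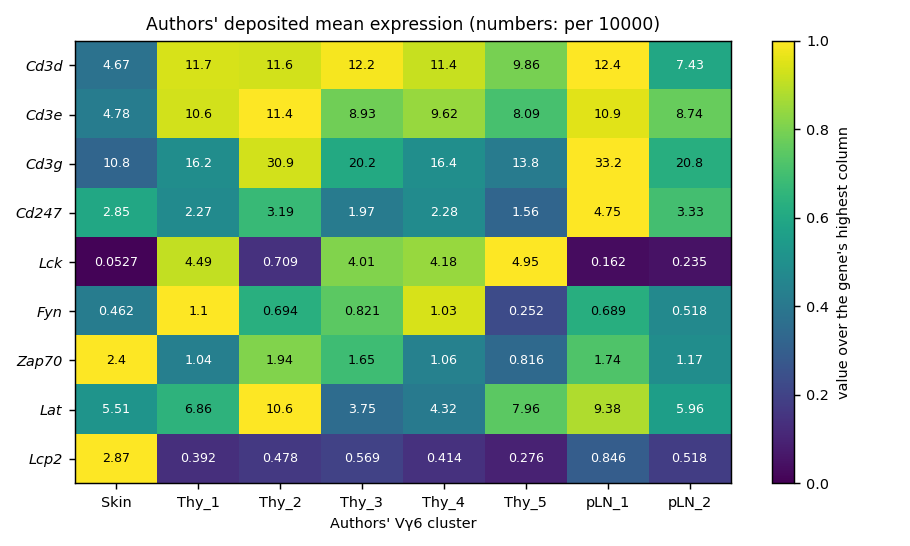
Mean expression of the 9 genes in the authors' 8 Vγ6 clusters (numbers, per 10000), coloured by the value over the gene's highest cluster. Lck is high in 4 thymus clusters and low in Thy_2, Skin and both pLN clusters, and Lcp2 is high in Skin alone.

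Over the 8 columns of the authors' deposited table, the genes whose pattern was most like that of Lck were Bzw2, Dusp10, Cd28, Acsl3 and Fyb (Pearson r of log2 values from 0.975 to 0.987, among 4266 genes with at least 0.5 in their highest column). Cd28 and Fyb also belong to the pathway lists. Most like Cd3g were Cers2, 1110008P14Rik, Tmem160, Cdipt and Trappc3 (r from 0.937 to 0.956). Cd3e correlated with Cd3g at 0.772, Cd3d at 0.619 and Lck at -0.20 over the same columns. Which cells entered each column was not given in the sources used here, columns named for 1 tissue may share a library, and these values describe the 8 columns.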

How the data were processed

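Droplet 3′ libraries of sorted mouse γδ T cells were read from the count matrices deposited by the authors, whose values are whole-number UMI counts per gene and cell, without normalization. Per the submitters' processing notes the build was mm10 and the tools were Cell Ranger 2.0 and Seurat 2.3. The authors' deposited table of mean expression per cluster sums to 10000 per column. The authors' deposited marker table holds natural log fold changes, fractions of cells (printed as percent) and p-values over cells, which were not used.

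Cells with at least 200 genes and at most 10% mitochondrial UMIs were kept, which left out 216 skin Vγ4, 120 skin Vγ6, 32 thymus, 2 pLN and 12 pooled cells for mitochondrial share. Counts were summed per library and scaled to CPM. Levels have exact Poisson, shares exact Clopper-Pearson and ratios exact conditional binomial intervals at 95%, all for counting error only. With 1 library per group nothing was tested between animals. Log2 ratios used a pseudocount of 1 CPM; the authors' means used 0.1. A gene at 0 was set at a floor of 3 counts per library. Cells were clustered per library with scanpy 1.11.5 (Leiden resolution 0.5), without the 77 pathway genes, and doublet calls were left in; leaving them out was an alternative. Named pathway genes were those called with the largest ratios, up to 4 per list and comparison, with both members and lists chosen with earlier results of these data known. The call rule was also run on simulated Poisson counts. These hold counting error alone, so they cannot show how the calls stand against variation among mice. Python 3.11.15, numpy 2.4.6 and scipy 1.17.1 were used, and edgeR 4.0.16 for TMM factors of the deposited counts. The values of 1 pathway gene are not reported here, though it is counted in its list.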

Additional observations from a re-analysis of the deposited data

How the results depend on the processing

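No paired analysis was possible because each group had 1 library, and no replicate could be left out for the same reason. The count of members called between skin Vγ6 and pLN, 2 as reported, was 1 with at least 500 genes and at most 5% mitochondrial UMIs per cell. It was 4 with cells thinned to 800 UMIs, with the mean over cells, and with clusters of fewer than 20 cells left out, an alternative chosen after seeing the data; the 2 added genes were Cd3d and Cd3e. The other comparisons' member counts stayed within 1.5 times the reported ones. Of the 378 recomputed member ratios, 352 were labelled unchanged, 11 gained a call and 6 lost one. The other 9, not called as reported, changed sign and left the reported interval. Unchanged means that call status held, with the sign kept or, for an uncalled ratio, a value inside the reported interval. No called ratio changed sign. The size of a shift was not weighed, so the 352 include the 4.94-fold Lck ratio given next. Lck was called higher in thymus than in pLN under every alternative, at 4.94-fold with the IL-17-type thymus cluster alone. With a pseudocount of 1, 3 of the 5 genes most like Lck and 3 of the 5 most like Cd3g remained. With no CPM minimum, the median log2 ratio of skin Vγ6 over pLN changed sign for kinases (0.77 to -0.16), adaptors (0.21 to -0.46) and surface partners (0.02 to -0.12). The skin Vγ6 library, with 793463 UMIs, limits statements on genes near 20 CPM.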
